A study of Homo sapiens with 8 samples.

Results

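Ribosome occupancy, the number of ribosome-protected fragments on the coding sequence (CDS) of each gene, was compared between HEK293T cells stressed with sodium arsenite and cells given vehicle, to see which classes of proteins held more or less of the translation that remained. HEK293T is an established human embryonic kidney line that carries the SV40 large T antigen, and arsenite is an oxidative stressor. The comparison uses the 4 ribo-seq libraries of 8 in the series, 2 from cells that received 40 µM arsenite for 30 min (arsenite) and 2 from cells that received vehicle (control), with replicates 1 and 2 in each group. The other 4 libraries are mRNA-seq of the same lysates and are used only to give the RNA level beside a ribo-seq value. All cells were washed and lysed in cycloheximide after the treatment, and none were given it before. Both replicates are biological replicas by the study's methods, and they differed in sequencing adapter and run. The labels give a replicate number but do not name separate cultures, so p-values concern these libraries only. They measure how far a change differed between the 2 replicates, a spread pooled largely across genes. Of 19964 genes with a coding transcript, 10290 had a mean of at least 10 CDS reads over the 4 libraries and were tested.

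Translation of nearly all mRNAs begins when eIF2 brings the initiator tRNA to the small ribosomal subunit. Stress kinases phosphorylate the alpha subunit of eIF2, which blocks its recycling by eIF2B and lowers initiation on most mRNAs. A few mRNAs, such as that of the transcription factor ATF4, carry short reading frames in the leader that keep their coding sequence poorly translated until eIF2 becomes limiting. Another class, with a run of pyrimidines directly at the capped 5′ end, encodes the ribosomal proteins and many translation factors and is controlled as a unit through mTOR and LARP1.

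The start sites of some genes on which the results turn are shown so that this second feature can be seen. They were read from RefSeq (GRCh38.p14), from 5 bases before the annotated transcription start to 20 bases from it. For a gene with several listed starts, the start with the longest tract is shown. Capitals mark a C at the start and the unbroken C and T bases after it, where this tract is at least 5 bases long. The annotated start need not be the one used in these cells. The genes shown are not typical of the calls: of 125 genes called lower that had a listed start, 34 had a tract. The first 5 genes were called lower in arsenite, EEF2 was not called, and IFRD1 and ATF4 were called higher, the latter shown as a start with no such tract.
RPS10 (chr6:34426050-34426074, minus strand): tccttCCTTTCCagccccggtaccg
RPL12 (chr9:127451387-127451411, minus strand): tccggCCTCTCggctttcggctcgg
RPS19 (chr19:41860250-41860274, plus strand): tcgttCCCTTTCCCCTggctggcag
EEF1A1 (chr6:73521013-73521037, minus strand): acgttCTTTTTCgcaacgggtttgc
EEF1B2 (chr2:206159890-206159914, plus strand): cgggtCCTTTTTCCTCTCTTCagcg
EEF2 (chr19:3985444-3985468, minus strand): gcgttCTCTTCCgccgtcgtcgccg
IFRD1 (chr7:112450503-112450527, plus strand): cacagCTCTTCacggggatttctgc
ATF4 (chr22:39520557-39520581, plus strand): gcagccatttctactttgcccgccc

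The control libraries held 1891356 and 7197535 CDS reads (replicates 1 and 2), and the arsenite libraries 1016849 and 2974456. Between 2160 and 7630 genes had 100 reads or more, the fewest in arsenite replicate 1. The replicates of 1 treatment lay further apart than the treatments of 1 replicate. Between control and arsenite, 13.8% of reads would have to move to another gene to make both profiles alike in replicate 1 and 10.1% in replicate 2, while the corresponding distance between replicates was 19.7% in control and 21% in arsenite. Changes were therefore estimated within replicates, with the replicate as a block, and scaled to the bulk of genes by TMM, so that the general loss of ribosomes is not part of them. A value of 0 then means that a gene lost ribosomes like most others. All 8 genes of a list of markers of HEK293 cells had ribo-seq reads, against 3 of 12 markers of other cell types.

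Most genes kept their place among the remaining ribosomes. The median log2 change over all genes tested was -0.00, the quartiles were -0.27 and 0.27, and 96.7% of genes lay within 1 log2 unit of 0. With edgeR (quasi-likelihood, Benjamini-Hochberg adjusted p under 0.05), 293 genes or 2.85% were called. Of these, 152 genes were called higher in arsenite, 1.48% of those tested, and 141 were called lower, 1.37%. All of them had the same sign in both replicates, which is partly built into calls made on the change within replicates. The smallest called change was 0.64 on the log2 scale. Among genes with a mean of 50 reads or more, 25 were over 2-fold higher and 32 over 2-fold lower in both replicates. Across the 7382 genes of that depth, which share libraries and are not independent, the changes in the 2 replicates had a Pearson r of 0.437. The number of calls moved with the settings. It ranged from 41 higher and 30 lower with scaling by library totals to 300 and 281 with RLE scaling, DESeq2 called 29 and 25, and edgeR without the replicate block called 0, with 75 higher and 69 lower at an unadjusted p under 0.05.

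**Figure D1:**
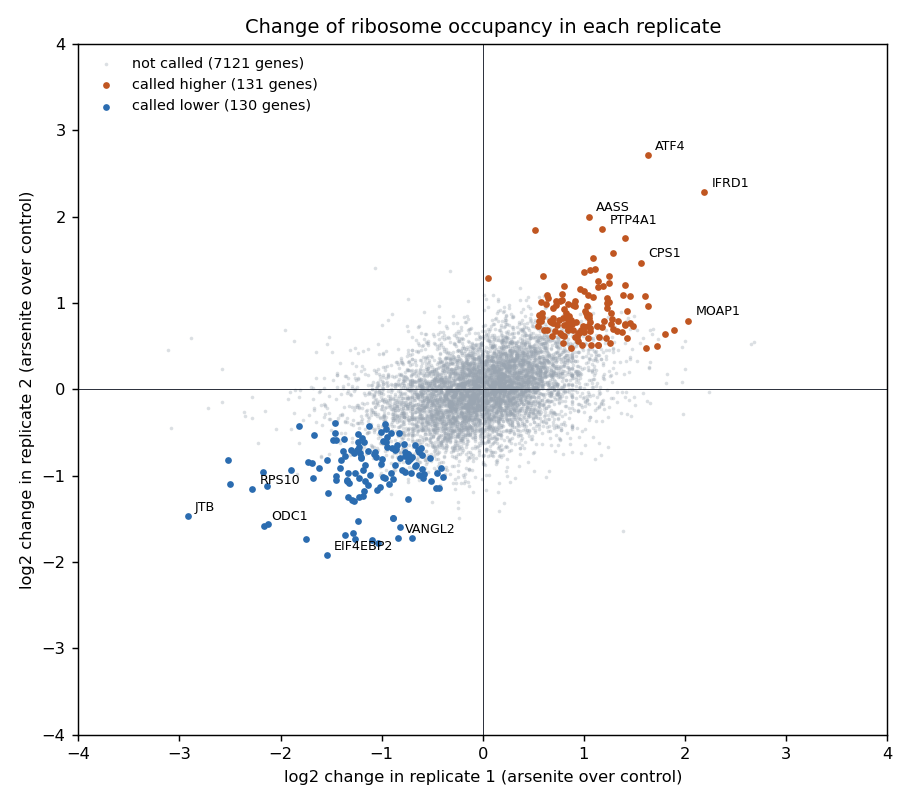
Log2 change of ribosome occupancy (arsenite over control) in replicate 1 against replicate 2, for 7381 genes that averaged 50 CDS reads or more (1 gene lies outside the axes). Orange points are 131 genes called higher and blue points 130 called lower by edgeR. All called genes lie in the upper right or lower left of the plot, which is partly built into calls made on the change within replicates.

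By the mean over replicates, the gene with the largest share of CDS reads in arsenite, as in control, was EEF1A1, the elongation factor that delivers aminoacyl-tRNA. In arsenite replicate 1 HSP90AA1 stood above it. The 9 genes that followed in mean share were HSP90AA1, HSP90AB1 and HSPA8, cytosolic chaperones, NCL, the nucleolar protein nucleolin, EEF2, the translocation factor, GAPDH, a glycolytic enzyme, TUBB, a beta-tubulin, PARP1, an enzyme of DNA repair, and HNRNPA2B1, an RNA-binding protein. A share of reads grows with the length of the coding sequence, so these are shares of ribosomes and not of protein chains. The 10 largest genes of each library held 6.54% (replicate 1) and 5.37% (replicate 2) of its reads in control, against 6.83% and 4.43% in arsenite.

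By the mean over replicates EEF1A1 lost more share than any other gene. It held 1.65% and 1.22% of CDS reads in control against 0.941% and 0.721% in arsenite, so that both arsenite libraries lay below both control libraries (log2 change -0.81 ± 0.17 (SE), adjusted p = 0.0112 by edgeR). GAPDH held 0.327% and 0.730% in control and 0.243% and 0.480% in arsenite, and it did not pass the test (log2 change -0.54 ± 0.17, edgeR adjusted p = 0.0878). RPS18, a protein of the small subunit, held 0.323% and 0.143% in control against 0.193% and 0.0864% in arsenite, a call within replicates (-0.76 ± 0.17, adjusted p = 0.0190) although the groups overlap. LDHB, a subunit of lactate dehydrogenase, and HNRNPA2B1 were also among the 5 largest differences downwards, at log2 changes of -0.59 and -0.36 that were not called.

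The largest difference upwards was that of HSP90AA1, the stress-inducible form of HSP90. Its share was 0.681% and 0.382% in control and 1.06% and 0.470% in arsenite, a larger value within each replicate that was not called (log2 change 0.44 ± 0.17, edgeR adjusted p = 0.174). PRKDC, the catalytic subunit of DNA-dependent protein kinase, rose from 0.199% and 0.192% to 0.294% and 0.329% (0.64 ± 0.17, adjusted p = 0.0432). PRPF8, the core protein of the spliceosome, held 0.129% and 0.164% in control and 0.182% and 0.286% in arsenite with no call (0.63 ± 0.18, adjusted p = 0.0524). CTNNB1, beta-catenin of adhesion and Wnt signalling, rose from 0.0981% and 0.121% to 0.158% and 0.213% (0.73 ± 0.17, adjusted p = 0.0248), and its RNA was also higher by 0.57 on the log2 scale. ATF4, the fifth gene of this group, had the smallest share in control, 0.0287% and 0.0210%, and held 0.0897% and 0.141% in arsenite.

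**Figure D2:**
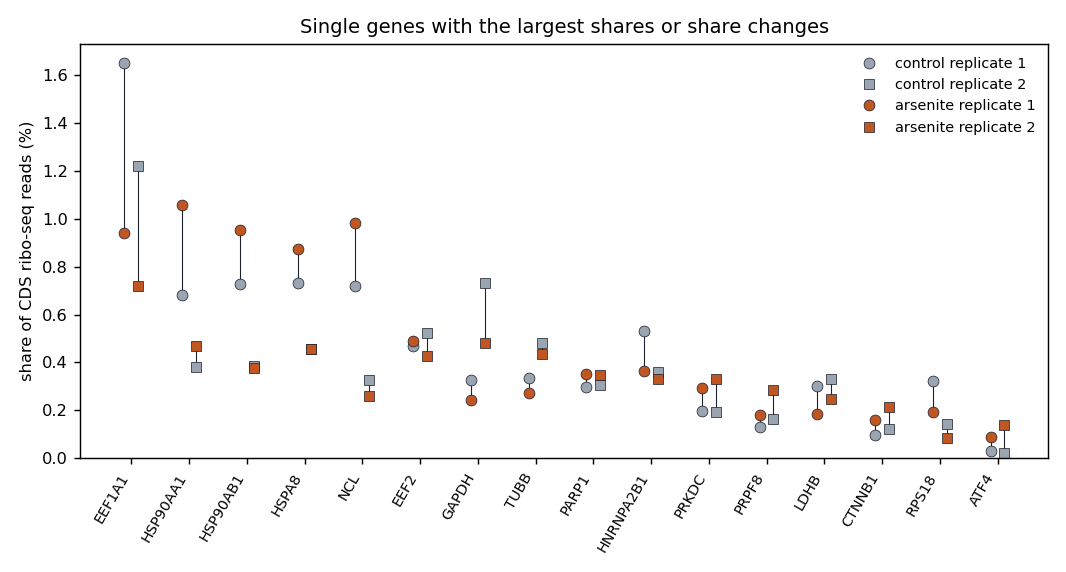
Share of all CDS ribo-seq reads (%) for 16 genes with the largest shares in arsenite or the largest changes of share. Grey points are control and orange points arsenite, circles are replicate 1 and squares replicate 2, and lines join the libraries of a replicate, and EEF1A1 fell from 1.65% and 1.22% to 0.941% and 0.721%.

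The called genes as a whole were a small part of the output. Those called higher held 1.57% and 1.82% of CDS reads in control against 2.95% and 3.38% in arsenite, and those called lower held 5.42% and 4.21% in control and 2.92% and 2.45% in arsenite. These shares describe genes that were chosen for their change. Of the 152 genes, 64 belonged to at least 1 of the protein lists described below, and of the 141 genes called lower 52 did. Of all 10290 genes tested, 2513 belonged to a list. The lists include those that the study chose on these libraries, with 13 genes called higher and 7 called lower, so part of both counts is built in.

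Among the most increased genes that averaged 50 reads or more, levels are given as CPM, the CDS count relative to library size after TMM scaling. These levels, and the increases, are relative to the bulk of genes and leave out the general loss of ribosomes. IFRD1, a transcriptional co-regulator, had 32.9 and 22.2 in control and 151 and 109 in arsenite. Relative to the bulk this was 4.75-fold higher (log2 change 2.25 ± 0.22, edgeR adjusted p = 2.03e-06). ATF4, the transcription factor that drives amino acid and stress genes, had 314 and 197 in control and 971 and 1287 in arsenite (2.18 ± 0.23, edgeR adjusted p = 5.21e-05). For both genes the arsenite libraries lay well above the control libraries. PTP4A1, a protein tyrosine phosphatase, had 19.6 and 22.9 in control and 44.7 and 82.8 in arsenite, and UCP2, a carrier of the inner mitochondrial membrane, had 17.3 and 17.8 against 42.6 and 53.4. By the study's own measure, translation of IFRD1, PTP4A1 and UCP2 fell slightly under arsenite, and that of ATF4 rose. None of IFRD1, ATF4, PTP4A1 and UCP2 was called in RNA, where their log2 changes lay between -0.13 and -0.05.

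Other genes of this group also had more RNA. AASS, an enzyme of lysine degradation, had 18.5 and 14.8 CPM in control and 38.3 and 59.5 in arsenite (log2 change 1.67 ± 0.28, edgeR adjusted p = 0.00134), and its RNA rose by 0.76. DIAPH1, a formin that nucleates actin filaments, had 49.7 and 50.2 in control and 132 and 169 in arsenite (1.61 ± 0.21, adjusted p = 7.22e-05), with an RNA change of 0.88. DNTTIP2, a nucleolar protein, had 91.3 and 41.8 against 195 and 120, and CPS1, the carbamoyl phosphate synthetase of the urea cycle, 28.3 and 18.7 against 84.1 and 51.8. Their RNA was called higher as well, by 0.69 and 0.32 on the log2 scale. MOAP1, a modulator of apoptosis, and SLU7, a splicing factor, completed the 10 largest increases at log2 changes of 1.32 and 1.28, with no call in RNA. In all 10 genes the groups did not overlap, which is partly built into a choice of the largest called changes. The share of all tested genes with such a separation was not determined.

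Among the most decreased genes of that depth, JTB, a transmembrane protein, had 60.1 and 49.7 CPM in control and 7.46 and 17.8 in arsenite (log2 change -1.90 ± 0.30, edgeR adjusted p = 0.000887). ODC1, ornithine decarboxylase, which makes the first polyamine, had 302 and 218 in control and 67.1 and 72.7 in arsenite (-1.84 ± 0.20, adjusted p = 8.72e-06). EIF4EBP2, a repressor that binds the cap-binding protein eIF4E, had 32.4 and 31.9 in control and 10.7 and 8.28 in arsenite (-1.83 ± 0.31, adjusted p = 0.00163). In each of these genes both arsenite libraries lay below both control libraries. BOD1, which aligns chromosomes in mitosis, BTBD2, a BTB-domain protein, ADRBK1, a kinase of G protein-coupled receptors, and VANGL2, of planar cell polarity, fell by 1.81, 1.60, 1.58 and 1.54 on the log2 scale. CCNG1, cyclin G1, had 336 and 124 in control and 140 and 37.1 in arsenite, so its groups overlap although it fell within each replicate (-1.50 ± 0.20, adjusted p = 0.0001). In none of the 10 most decreased genes was the RNA level called changed.

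**Figure D3:**
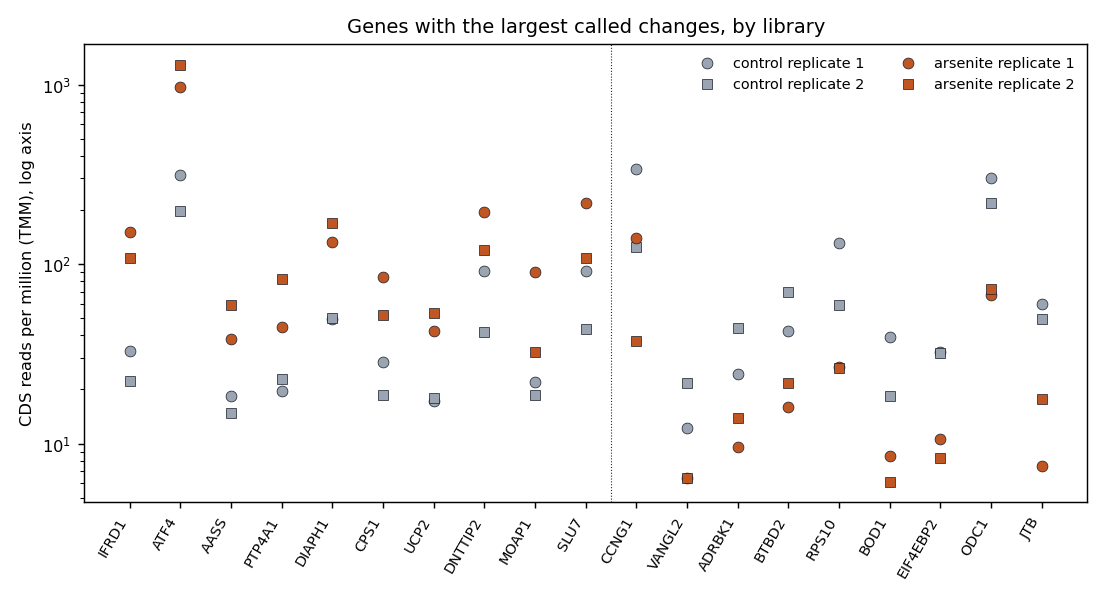
TMM-scaled CPM of CDS reads (log axis) in each library for the 10 genes (averaging 50 reads or more) with the largest called increases (left of the dotted line) and for 9 of the 10 with the largest called decreases. Grey points are control and orange points arsenite, circles are replicate 1 and squares replicate 2, and of the 19 genes CCNG1 alone had overlapping groups. The genes were chosen for their change, so the separation is partly built in.

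Protein classes were then compared by the median log2 change of their tested members and by the number called, beside the background of 1.48% called higher and 1.37% called lower. Over 41 lists drawn up by function, 23 medians lay below 0 and 18 above, but only 9 exceeded 0.2 in size, and 14 lists had no called member. The median had the same sign in both replicates in 32 lists. For the share of reads, 14 lists were lower and 14 higher in arsenite in both replicates, and the other lists differed in direction between the replicates. Counts of calls in lists were mostly smaller with DESeq2. It called 3 of the 5 poly(A)-binding and stress granule proteins lower, 1 of the 3 nucleotide synthesis genes lower and 3 actin-binding proteins higher. It also called 1 gene higher each among ribosome biogenesis factors, ubiquitin ligases, splicing proteins, mitotic genes, and nuclear pore and importin genes. In the respiratory chain list, with 0 calls in the main fit, DESeq2 called 1 gene higher.

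**Figure D4:**
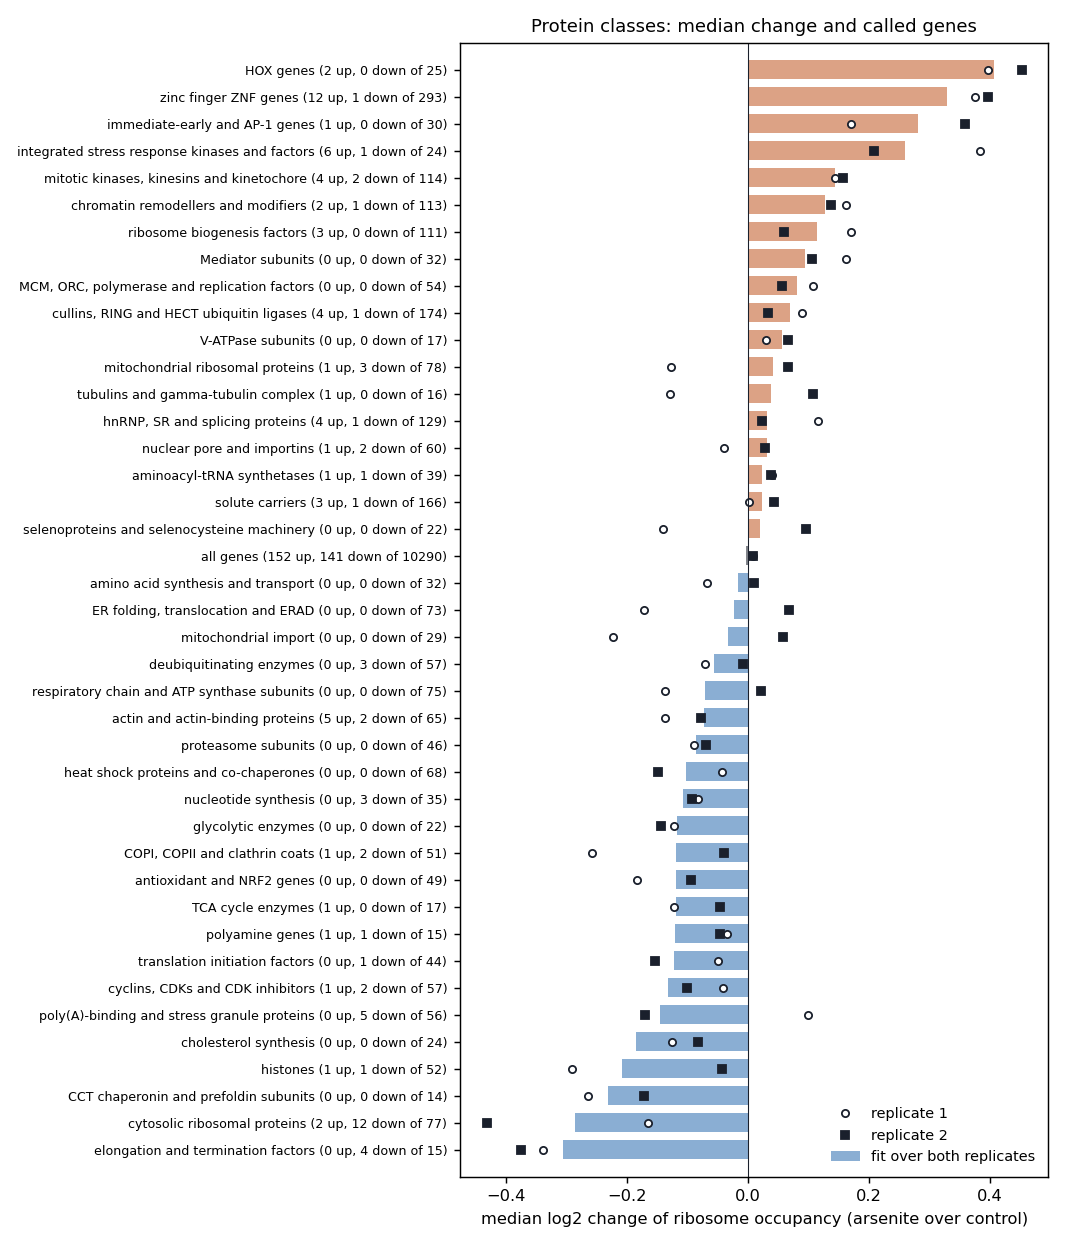
Median log2 change of ribosome occupancy (arsenite over control) for 40 of the protein lists and for all genes tested, with bars for the fit over both replicates, open circles for replicate 1 and squares for replicate 2. The labels give the genes called higher and lower out of those tested. The list of elongation and termination factors, which also holds TPT1, and that of ribosomal proteins lie at the bottom (-0.31 and -0.29) with HOX and ZNF genes at the top (0.41 and 0.33).

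Several proteins of the translation machinery were called lower. Of 15 genes tested from a list of elongation and termination factors, 14 had a negative change (median log2 -0.31) and 4 were called lower, and the list held 2.64% and 2.18% of CDS reads in control against 1.83% and 1.49% in arsenite. DESeq2 called 2 of them and scaling by library totals 1. The 4 were EEF1A1, EEF1B2, which exchanges the nucleotide of EEF1A1, HBS1L, which rescues stalled ribosomes, and TPT1, an abundant growth-related protein. TPT1 is neither an elongation nor a termination factor, so the count, median and share of the list cover more than these factors. EEF1B2 had 1034 and 702 CPM in control and 536 and 440 in arsenite (-0.81 ± 0.18, edgeR adjusted p = 0.0151). EEF2, another elongation factor, had 5136 and 4896 in control and 5324 and 3889 in arsenite and no call (-0.14 ± 0.18, edgeR adjusted p = 0.732), while its RNA was higher by 0.39 on the log2 scale.

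Of 77 cytosolic ribosomal proteins tested, 59 had a negative change and the median was -0.29, with -0.17 in replicate 1 and -0.43 in replicate 2. Together they held 6.97% and 7.30% of CDS reads in control against 6.74% and 5.61% in arsenite. The test called 12 lower, or 15.6%, and 2 higher, while DESeq2 called 7 lower and 0 higher and scaling by library totals 3 and 0. RPS10 was the most decreased, with 132 and 58.9 CPM in control and 26.6 and 26.4 in arsenite (-1.62 ± 0.26, edgeR adjusted p = 0.000887). An annotated read-through gene shares exons with it, and reads that matched more than 1 gene had been discarded, so its count holds only part of its reads. RPL12, of the stalk base of the large subunit, had 503 and 460 in control and 235 and 137 in arsenite (-1.43 ± 0.19, adjusted p = 0.000156), and RPS19 had 963 and 869 against 414 and 523 (-0.97 ± 0.18, adjusted p = 0.00498). RPL12 is on a list of sensitive genes that the study chose on these libraries. The 2 called higher, looked up after the count was seen, were RPL39 and RPL41, at 0.78 ± 0.18 and 0.77 ± 0.19 (edgeR adjusted p = 0.0210 and 0.0284). RPL39 had 226 and 870 reads in control against 222 and 609 in arsenite. In RNA, ribosomal protein genes had a median log2 change of -0.11, with 22 of 79 tested genes called lower and 0 higher by edgeR. Over all genes tested for RNA, 1.69% were called lower and 4.01% higher.

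The terminal pyrimidine tract was set beside these changes. RefSeq start sites could be assigned to 8595 of the 10290 genes tested and to 62 of the 77 ribosomal protein genes, and a gene was counted as having the tract when any of its listed starts had it. By this count 7.89% of tested genes and 75.8% of ribosomal protein genes had a tract, against 5.14% of all genes in the table of starts. Genes with a tract had a median log2 change of -0.10, with 34 of 678 (5.01%) called lower and 8 (1.18%) higher. Of the 7917 genes without one, with a median of 0.00, 91 (1.15%) were called lower and 120 (1.52%) higher. Without the ribosomal protein genes, 25 of 631 genes with a tract (3.96%) were called lower, and 89 of 7902 without it (1.13%). Among ribosomal protein genes the median was -0.33 for 47 with the tract and -0.23 for 15 without it. Genes called lower outside that list that had a tract include CCNG1, CCNI, MTHFD2, RAB4A and USP46, and IFRD1, CPS1 and CDK16 had one and were called higher. RPL39 and RPL41, the 2 ribosomal protein genes called higher, both had a tract, of 19 and 5 bases. The match is a description of the annotated start, and tract genes had more listed starts (a mean of 1.93 against 1.43).

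The other parts of the machinery had medians nearer 0. Of 44 genes tested from a list of initiation factors, EIF4EBP2 alone was called, lower, and the median was -0.12. EIF4EBP2 is a repressor of eIF4E and not an initiation factor, so the main fit called no initiation factor itself. Of 39 aminoacyl-tRNA synthetases, IARS, the cytosolic isoleucyl enzyme, was called lower with 898 and 800 CPM in control and 565 and 514 in arsenite (-0.65 ± 0.18, edgeR adjusted p = 0.0418). Its mitochondrial counterpart IARS2 was called higher (0.74 ± 0.18, edgeR adjusted p = 0.0275), and the list had a median of 0.02. Neither was called with DESeq2 or with scaling by library totals. Ribosome biogenesis factors had a median of 0.11 with 3 of 111 called higher and 0 lower, and held 3.03% and 2.39% of reads in control against 3.74% and 2.49% in arsenite. The 3 were NOP10, of the H/ACA snoRNPs, PDCD11, an rRNA processing factor, and PELP1, at 0.98, 0.92 and 0.65. Mitochondrial ribosomal proteins had a median of 0.04, with opposite signs in the replicates, and with MRPL42 and MRPL51 among 3 called lower (-1.19 and -0.86) and MRPL35 higher (1.20).

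Chaperones and the degradation systems had few calls. None of 68 heat shock proteins and co-chaperones was called (median -0.10), although the list held 3.87% and 2.63% of reads in control against 4.45% and 2.61% in arsenite, a larger share in replicate 1 only. HSPA8, the constitutive HSP70, had 8004 and 4252 CPM in control and 9440 and 4165 in arsenite (0.10 ± 0.17, edgeR adjusted p = 0.810). The CCT chaperonin and prefoldin, which fold actin and tubulin, had a median of -0.23 over 14 genes and no call. No member was called among 46 proteasome subunits (median -0.09) or 73 genes of endoplasmic reticulum folding and degradation (-0.02), where HSPA5, the chaperone BiP, stood at 0.25 ± 0.17. Of 57 deubiquitinating enzymes 3 were called lower, USP46, USP25 and USP47 at -1.43, -1.12 and -0.75, and DESeq2 and library totals called 0. Of 174 cullins and RING or HECT ubiquitin ligases 4 were called higher and 1 lower. HERC1, a giant HECT ligase, had 67.6 and 58.9 in control and 149 and 134 in arsenite (1.17 ± 0.20, edgeR adjusted p = 0.00163), HERC2, a related ligase, stood at 0.87, and RNF14 was lower (-1.12).

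Of 24 genes of the integrated stress response, 6 were called higher (25%) and 1 lower, with a median of 0.26. The list held 0.224% and 0.199% of reads in control against 0.296% and 0.328% in arsenite. With DESeq2 3 were called higher and 0 lower. The 6 were ATF4, ATF5, a related transcription factor, PPP1R15A and PPP1R15B, which bring a phosphatase to eIF2, DDIT3, the factor CHOP, and XBP1, of the unfolded protein response, and 4 of them (ATF4, ATF5, PPP1R15A and PPP1R15B) are also in the list described next. PPP1R15A, the inducible form, had 4.62 and 2.73 CPM in control and 26.6 and 22.7 in arsenite (2.87 ± 0.36, edgeR adjusted p = 5.21e-05). PPP1R15B, the constitutive form, had 58.4 and 46.6 against 117 and 120 (1.21 ± 0.21, adjusted p = 0.00175). DDIT3 had only 4 and 11 reads in control against 15 and 16 in arsenite (2.14 ± 0.50, adjusted p = 0.0213). The gene called lower was PPP1CC, a catalytic subunit of protein phosphatase 1.

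A list of genes that the study singled out on these libraries as translated in spite of the stress is no independent evidence. It includes IFRD1, ATF4, PTP4A1 and UCP2, described above. All 13 were called higher, with a median of 1.89, but AZIN1, SMCR7L and PPP1R15B were not among those that passed the study's own criterion, and the first pair was named there for function and profile. Their combined share was small, 0.0537% and 0.0444% of reads in control against 0.148% and 0.215% in arsenite. SLC35A4, a nucleotide-sugar transporter, had 0 and 4 CDS reads in control against 2 and 81 in arsenite, so the size of its change rests on few reads. AZIN1, which protects ornithine decarboxylase from its antizyme, had 72.2 and 51 CPM in control and 112 and 109 in arsenite (0.89 ± 0.21, edgeR adjusted p = 0.0213), opposite to ODC1 itself. SMCR7L, now called MIEF1, a factor of mitochondrial fission, stood at 0.99 ± 0.22. Of the list of sensitive genes, also chosen by the study on these libraries, 7 of 8 were called lower (median -1.42), and EIF2AK2, the double-stranded RNA kinase of eIF2 and a borderline case in the study, was not (-0.65 ± 0.22, edgeR adjusted p = 0.111). ODC1, CCNG1, CCNI and RPL12 are among those called.

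JUN, a subunit of the transcription factor AP-1, had 121 and 212 CPM in control and 254 and 551 in arsenite (1.23 ± 0.18, edgeR adjusted p = 0.000478), and its RNA rose by more, 1.45 on the log2 scale. JUN was the only call among 30 immediate-early and AP-1 genes, of which 26 had a positive change (median 0.28). None of 49 antioxidant and NRF2 genes was called (median -0.12), nor any of 22 selenoproteins or 32 genes of amino acid synthesis and transport. PRDX1, a peroxiredoxin, had 2178 and 1443 in control and 1916 and 1426 in arsenite. Of 15 polyamine genes, ODC1 and AZIN1 were the 2 called, and both are on the lists the study chose on these libraries.

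Energy metabolism had few calls. Glycolytic enzymes held 1.89% and 2.63% of CDS reads in control against 1.55% and 2.15% in arsenite, with a median of -0.12 and none of 22 called, and PKM, pyruvate kinase, stood at 0.02 ± 0.17. In the main fit no call was made among 75 respiratory chain and ATP synthase subunits (median -0.07), 29 genes of mitochondrial import or 24 of cholesterol synthesis (-0.19). DESeq2 called 1 respiratory chain gene higher, and RLE scaling called 3 higher and 1 lower. Respiratory chain RNA was called lower in 20 of 76 tested genes and higher in 0. Over all genes tested for RNA, 1.69% were called lower and 4.01% higher. Of 35 genes of nucleotide synthesis 3 were called lower. MTHFD2, of mitochondrial folate metabolism, had 317 and 319 in control and 119 and 180 in arsenite (-1.09 ± 0.19, edgeR adjusted p = 0.00223), and PRPS2 and NME1 stood at -0.85 and -0.68.

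Of 56 poly(A)-binding and stress granule proteins 5 were called lower, or 8.93%, and 0 higher, at a median of -0.15 that had opposite signs in the replicates (0.10 and -0.17). Among these were PABPC1, the main poly(A)-binding protein, PCBP2, which binds C-rich sequence, PAIP1, a partner of PABPC1, and YBX1, a cold-shock protein. PABPC1 had 419 and 185 CPM in control and 205 and 53.7 in arsenite (-1.41 ± 0.20, edgeR adjusted p = 0.000267), while its RNA was higher by 0.19. PCBP2 had 971 and 1160 against 525 and 412 (-1.20 ± 0.19, adjusted p = 0.000878). PABPC1 and PCBP2 are also on the study's sensitive list. The 129 hnRNP, SR and splicing proteins had a median of 0.03, with 4 called higher and 1 lower, and kept 6.21% and 5.79% of reads in control against 6.43% and 6.13%. SRSF2, an SR splicing factor, had 188 and 666 in control and 438 and 1007 in arsenite (0.89 ± 0.19, edgeR adjusted p = 0.0124), RBM25 stood at 0.82, and RBMX was lower (-0.99).

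Transcription factors of 2 families had the highest medians. Of 293 zinc finger ZNF genes 224 had a positive change (median 0.33), and 12 were called higher, or 4.10%, and 1 lower. These genes have few reads each. ZNF394 had 9 and 61 reads in control against 26 and 62 in arsenite (1.60 ± 0.33, edgeR adjusted p = 0.0107). With a mean of at least 50 counts the ZNF median was 0.26, and with DESeq2 none of them was called. Of 25 HOX genes 22 had a positive change (median 0.41) and 2 were called higher, HOXA10 (0.87 ± 0.21, edgeR adjusted p = 0.0265) and HOXB2 (1.89 ± 0.50, adjusted p = 0.0403). HOXB2, which is also on the list the study singled out, had 4 and 14 reads in control against 5 and 26 in arsenite. Neither was called with DESeq2 or with scaling by library totals. HOXA10 had 56 and 41.2 CPM in control and 117 and 67.5 in arsenite. Chromatin remodellers and modifiers had a median of 0.13, with SMARCE1 and MLL5 called higher (0.73 and 1.02) and SMARCB1, another SWI/SNF subunit, lower (-0.74). DESeq2 and scaling by library totals called 0 genes of this list. Histones had a median of -0.21, and their share was 1.36% and 2.48% in control and 0.795% and 2.37% in arsenite, with HIST1H2AI called lower and HIST2H2BE higher. The histone median was -0.29 in replicate 1 and -0.04 in replicate 2. HIST2H2BE had a log2 change of 0.05 in replicate 1 and 1.29 in replicate 2, with overlapping groups (edgeR adjusted p = 0.0496). Reads shared between histone copies had been discarded, so these values cover only what is particular to each gene. None of 32 Mediator subunits was called (median 0.09).

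Mitotic kinases, kinesins and kinetochore proteins held 1.60% and 1.31% of reads in control against 1.83% and 1.54% in arsenite (median 0.14), with 4 of 114 called higher and 2 lower. CENPC1, of the inner kinetochore, had 41.6 and 28 CPM in control and 86.3 and 50.9 in arsenite (0.94 ± 0.22, edgeR adjusted p = 0.0230), and KIF1C and ANAPC13 were lower (-0.99 and -0.98). No replication factor was called among 54 (median 0.08). Of 57 cyclins, CDKs and inhibitors, CDK16 was called higher (1.21 ± 0.23, edgeR adjusted p = 0.00506), and CCNG1 and CCNI, 2 atypical cyclins, lower. CCNG1 and CCNI are both on the study's sensitive list.

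The cytoskeleton held opposite calls within 1 list. Of 65 actin and actin-binding proteins 5 were called higher, or 7.69%, and 2 lower. SPTBN1, a beta-spectrin, had 64.7 and 77.9 CPM in control and 151 and 162 in arsenite (1.13 ± 0.20, edgeR adjusted p = 0.00196). The RNA of SPTBN1 and of DIAPH1 was called higher too, by 0.72 and 0.88. The 2 called lower were ARPC2, of the Arp2/3 complex, and CFL2, a cofilin, and the median of the list was -0.07. TUBB2A was called higher among 16 tubulin genes (1.09 ± 0.28, edgeR adjusted p = 0.0360), but not with DESeq2 or with scaling by library totals.

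Of 60 nuclear pore and importin genes, NUP153, of the nuclear basket, was called higher with 257 and 300 in control and 571 and 456 in arsenite (0.87 ± 0.19, edgeR adjusted p = 0.0124), and IPO11 and XPOT were lower (-0.97 and -0.77). Vesicle coats had 1 call higher, AP3S2, and 2 lower, with AP1S2 at -1.97 and SEC23A at -0.66. AP3S2 had 1 and 52 reads in control against 6 and 64 in arsenite, with overlapping groups. AP1S2 had 31 and 54 reads against 6 and 4. DESeq2 and scaling by library totals called 0 coat genes. No V-ATPase subunit was called, and 166 solute carriers had a median of 0.02 with 3 calls higher and 1 lower. Among the calls higher was SLC35A4, which is on the list the study singled out.

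**Figure D5:**
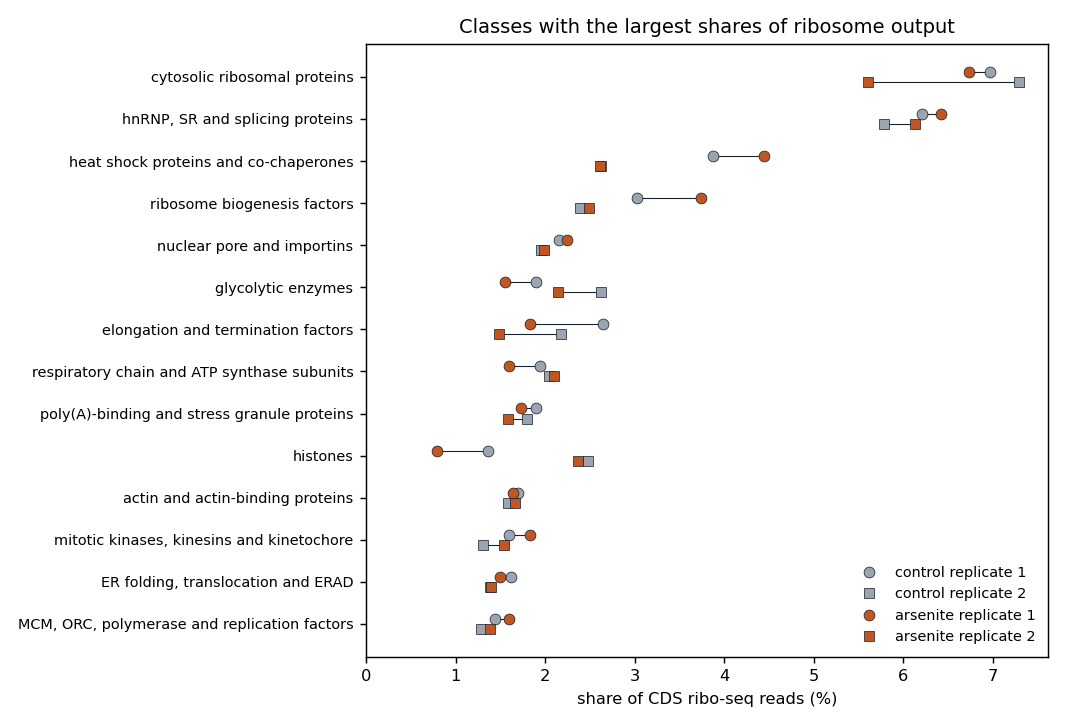
Share of all CDS ribo-seq reads (%) held by the 14 protein lists with the largest shares. Grey points are control and orange points arsenite, circles are replicate 1 and squares replicate 2, and lines join the libraries of a replicate. The share of the list of elongation and termination factors, which also holds TPT1, was smaller in arsenite in both replicates. That of heat shock proteins was larger in replicate 1 only.

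Some of the called genes were also called in RNA. Of the 152 called higher in ribosome occupancy, 36 were called higher in RNA and 4 lower, with a median RNA change of 0.05. Over all 12576 genes tested for RNA, 5.7% were called, 504 (4.01%) higher and 213 (1.69%) lower. Of the 140 genes called lower in occupancy that had an RNA test, 5 were called higher in RNA and 8 lower, with a median RNA change of -0.02. At least 10 leader reads over both control libraries were found in 47 of the genes called higher (30.9%) and in 53 of those called lower (37.6%), against 15.1% of all genes tested. That count depends on depth. Per 1000 mRNA-seq reads of the gene in control, the median number of leader reads was 1.57 for genes called higher, 1.31 for genes called lower and 0.791 for all genes tested. The upper quartile was 7.88 for genes called higher, and at 3.64 for genes called lower it lay under the 4.01 of all genes.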

How the data were processed

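Ribo-seq of HEK293T cells was analysed in 2 control and 2 arsenite libraries, with mRNA-seq of the same lysates beside it. Per the study's methods, footprints were taken from the monosome peak, reads were trimmed (cutadapt) and aligned to RefSeq transcripts with Bowtie 1.0.0, and reads that matched more than 1 gene were discarded. The authors deposited, per transcript, whole counts of reads that were not normalized. Separate deposited columns give the counts of the leader, the CDS and the 3′ UTR. Members and lists were chosen with earlier results of these data known.

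For each gene the coding transcript with most CDS reads over both control ribo-seq libraries was used, and genes that averaged 10 counts or more went into edgeR 4.0.16 (R 4.3.3), using TMM, robust quasi-likelihood and the replicate as a block. A call is a Benjamini-Hochberg adjusted p under 0.05 over all genes tested. RNA was fitted in the same way. An exact test of single values over 2 against 2 libraries cannot give a p under 0.333. The common biological coefficient of variation was 0.140. The fit left 1 residual degree of freedom per gene, against a prior of 23.3 taken from all genes. Libraries held 1016849 to 7197535 CDS reads, which limits genes of low level, and PCR duplicates could not be told apart. The replicate numbers were checked as pairs. Deviations of same-numbered libraries from their group means had r = 0.793 over 7382 genes, and the methods state that the replicates differed in adapter and sequencing run.

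Genes are named by rule: up to 10 called genes a direction with a mean of at least 50 reads and the largest change, the 5 largest differences of share a direction, the 10 largest shares in arsenite, up to 3 called members of each list (or 2 with most reads where none was called), the study's genes, and JUN. Others are named where a count is broken down, after their values were seen. On simulated counts with 200 changed genes among 10290, 10130 passed the filter and the test recovered 59 of 100 with a 2-fold and 94 of 100 with a 4-fold change, with 4 false calls among 157. Alternatives were RLE, upper-quartile and total scaling, DESeq2 1.42.0, other filters, no block, another transcript, whole-transcript reads, each replicate left out and, chosen after seeing the data, no robust estimate. Some named items are not reported here. Shares by estimated number of chains were not computed.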

Additional observations from a re-analysis of the deposited data

Results flagged for a closer look

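Ribo-seq reads outside the CDS are not part of the comparison, and those in 3′ UTRs were a larger share in arsenite than in the control of the same replicate. In replicate 1 they made up 0.20% of the arsenite reads against 0.102% in control, and in replicate 2 0.754% against 0.204%, or 1.97 and 3.69 times the control. The groups overlap, since arsenite replicate 1 lay just below control replicate 2. Leader reads were also a larger share in arsenite within each replicate, again with overlapping groups. They made up 0.495% against 0.399% in control in replicate 1, and 1.52% against 0.800% in replicate 2. Neither difference was tested.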

How the results depend on the processing

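The direction of every named gene, and of the 9 list medians over 0.2, was kept in each alternative fit of both replicates, but the number of calls was not. Against 152 genes higher and 141 lower, RLE scaling called 300 and 281, upper-quartile scaling 258 and 229, no filter on low counts 249 and 287, and a mean of at least 50 counts 296 and 280. Scaling by library totals called 41 and 30, and DESeq2 with the replicate as a block 29 and 25. Without the replicate block 0 and 0 were called. The calls of RLE, of upper-quartile scaling and of no filter included all 293 genes. Of the 89 named genes called, 41 were called with library totals, 33 with DESeq2 and 0 without the replicate block, and 77 to 89 in the others. The prior degrees of freedom of the edgeR fits also differed. They were 23.3 in the main fit, 94.8 with upper-quartile scaling, 11.1 with library totals and 4.47 without the block. They were unbounded with RLE, with no filter and with a mean of at least 50 counts. The cause of the differences in calls was not tested. Without the low-count filter 46.5% of calls were higher, against 51.9%, and 57.7% with library totals. Leaving out a replicate leaves 1 library a group and no test. The median of genes called higher then ranged from 0.87 to 1.04 and of those called lower from -1.16 (without replicate 2) to -0.93, and 19 to 26 of 41 list medians lay below 0. Depth limits genes with few reads, the ZNF and HOX genes among them.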
